A study of Mus musculus with 6 samples.

Results

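The genes described here are the proteasome subunits and regulators of the mouse hippocampus, taken as the rows of the deposited expression table whose symbol begins with Psma to Psmg followed by a digit. The rule gave 50 of 31838 genes, after 2 symbols that hold -ps, a mark of pseudogenes, were left out. Of the 50, 49 passed the filter on low counts, along with 20428 genes in all, and Psma8 did not. All libraries were of hippocampal RNA from 4-month-old wild-type C57BL/6 mice. In the control group (3 libraries) the treatment was corn oil. In the other group (3 libraries) it was BBP, the phthalate ester butyl benzyl phthalate used to soften plastics, given at 50 mg/kg/day. The study's title names cognitive impairment by BBP, and the design sets the treated hippocampus against the control. Nothing in the labels ties a library to its own animal, so p-values here reflect library-to-library spread, which may be technical.

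The proteasome degrades proteins that carry ubiquitin chains. Its 20S core is a barrel of alpha and beta rings, and the beta subunits Psmb5, Psmb6 and Psmb7 cut the substrate inside it. The 19S particle caps the barrel: its base unfolds the substrate with ATPases, and its lid removes the ubiquitin. Interferon-inducible subunits can replace the catalytic ones to form the immunoproteasome, and alternative caps and assembly chaperones complete the family. In neurons the proteasome takes part in synaptic protein turnover.

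Proteasome genes are known to be controlled together, in part by the transcription factor Nfe2l1, which binds antioxidant response elements with the core letters TGACNNNGC. The sequences upstream of 3 genes are printed because their subunits had different levels across the libraries: Psmb5 and Psmb6 were at their lowest in BBP library 2, whereas Psmd11 was at nearly the same level in every library. They are RefSeq promoter sequences of build GRCm38.p6, written 5′ to 3′ on the gene's strand and ended before the first annotated transcription start. The intervals are chr14:54618023-54618245 on the minus strand for Psmb5, chr11:70525107-70525356 on the plus strand for Psmb6 and chr11:80428365-80428614 on the plus strand for Psmd11. Capitals mark a match to TGACNNNGC.
Psmb5: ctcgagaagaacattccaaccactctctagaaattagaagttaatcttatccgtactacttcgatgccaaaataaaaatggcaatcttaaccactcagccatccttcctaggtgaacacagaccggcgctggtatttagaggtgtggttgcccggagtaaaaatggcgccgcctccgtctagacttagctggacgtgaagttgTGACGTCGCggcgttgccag
Psmb6: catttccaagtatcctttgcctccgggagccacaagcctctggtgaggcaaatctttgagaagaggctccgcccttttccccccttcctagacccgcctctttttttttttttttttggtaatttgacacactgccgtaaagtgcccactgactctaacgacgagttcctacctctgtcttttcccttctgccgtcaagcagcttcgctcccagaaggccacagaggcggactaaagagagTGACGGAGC
Psmd11: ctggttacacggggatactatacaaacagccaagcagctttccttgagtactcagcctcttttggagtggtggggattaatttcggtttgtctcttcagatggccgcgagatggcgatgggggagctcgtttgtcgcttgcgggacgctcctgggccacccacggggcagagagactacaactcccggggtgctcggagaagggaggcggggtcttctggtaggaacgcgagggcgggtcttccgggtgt
The match began at base 204 of the Psmb5 stretch and at base 242 of the Psmb6 stretch, and the Psmd11 stretch held none. RefSeq gave 45 promoter windows (250 bases before to 50 after a start) for 42 of the 50 members, and Psma8, Psmb1, Psmb2, Psmb7, Psmc3, Psmd3, Psmd7 and Psmg2 had no entry. Searched on both strands, TGACNNNGC was present in 6 of the 45 windows (13.3%), those of Psmb5, Psmb6, Psmc6, Psmd9, Psmd12 and Psme4, and in 12.4% of 32851 windows of all genes. The CCAAT box, searched on both strands, was present in 15 of the 45 (33.3%) and in 37.4% of all windows. For both motifs the members' share was close to that of all genes. A match describes letters only, and says nothing of binding. The 3 printed genes do not stand for all members. In BBP library 2 the 6 members with a match were at 0.598 (Psmb5) to 0.860 (Psmd12) times their corn oil mean. Members with no match included Psmg1, Psma5 and Psmb4 at 0.555, 0.570 and 0.603 times, and Psmd11 at 1.00 times. A relation between the match and the level was not tested.

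The deposited estimated counts summed to between 62477604 and 68422361 per library. Mitochondrially encoded genes took 7.11% to 8.57% of the counts in 5 libraries and 11.5% in BBP library 2. Markers of hippocampal neurons were detected in every library. Levels are in FPKM, fragments per kilobase of exon scaled to library size. BBP library 1 stood apart in regional markers: the 11 striatal neuron markers had a median log2(FPKM + 1) 1.23 above the corn oil mean there, against -0.24 to 0.26 in the other libraries, and the 8 dentate granule neuron markers stood at -0.62, against -0.31 to 0.29. Neocortical neuron markers were at 0.92 in BBP library 1, against -0.09 to 0.14 in the other libraries. Markers of CA2 and CA3 pyramidal neurons were at -0.80 in BBP library 1 and -0.25 in BBP library 2, against -0.17 to 0.11 elsewhere. Oligodendrocyte markers were at 0.51 in BBP library 1 and 0.47 in BBP library 2, against -0.16 to 0.27 in the other libraries. Results are therefore also given without these libraries. In bulk tissue, fewer cells of a type and less RNA per cell cannot be told apart.

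No proteasome gene passed the test between the groups. Most members had a lower estimate in the BBP group, and the difference lay mainly in BBP library 2. By edgeR's quasi-likelihood test with Benjamini-Hochberg adjustment over 20428 genes, 0 of 49 members had an adjusted p under 0.05, and the smallest adjusted p among them was 0.953. The share of all genes called was 0.0%. At an unadjusted p under 0.05, 1 member was lower (2.04%, against 1.37% of all genes) and 0 were higher (against 1.98% of all genes), shares near the background. Without any 1 of the corn oil libraries 0 members were lower at that threshold, against 0.719%, 0.767% and 0.719% of all genes without libraries 1, 2 and 3. Without BBP library 1 the number was 13, against 3.83% of all genes. DESeq2 gave the same counts for the members, 1 lower (2%, against 1.01% of 31820 genes) and 0 higher (against 509 of all genes). Past its adjusted threshold were 0 members and 3 of all genes.

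The members nevertheless lay to one side. The log2 fold change of BBP over corn oil was negative in 40 of 49 members (81.6%) and in 47.6% of all genes, and its median was -0.15 for the members (-0.07 without BBP library 2) and 0.01 for all genes. In 12 members (24.5%) the 3 BBP libraries all lay below the 3 corn oil libraries in FPKM, against 5.25% of all genes. These were Psma1, Psma2, Psmb1, Psmb3, Psmb5, Psmb7, Psmb11, Psmc2, Psmc3, Psmc4, Psmc6 and Psmd10. In 0 members did all BBP libraries lie above, against 4.4% of all genes. Members of 1 complex are not independent of each other, so these shares are a description. The 95% confidence interval excluded changes above 1.5-fold, up or down, for 38 of 49 members (77.6%) and 50.4% of all genes, and changes above 2-fold for 47 members.

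**Figure D1:**
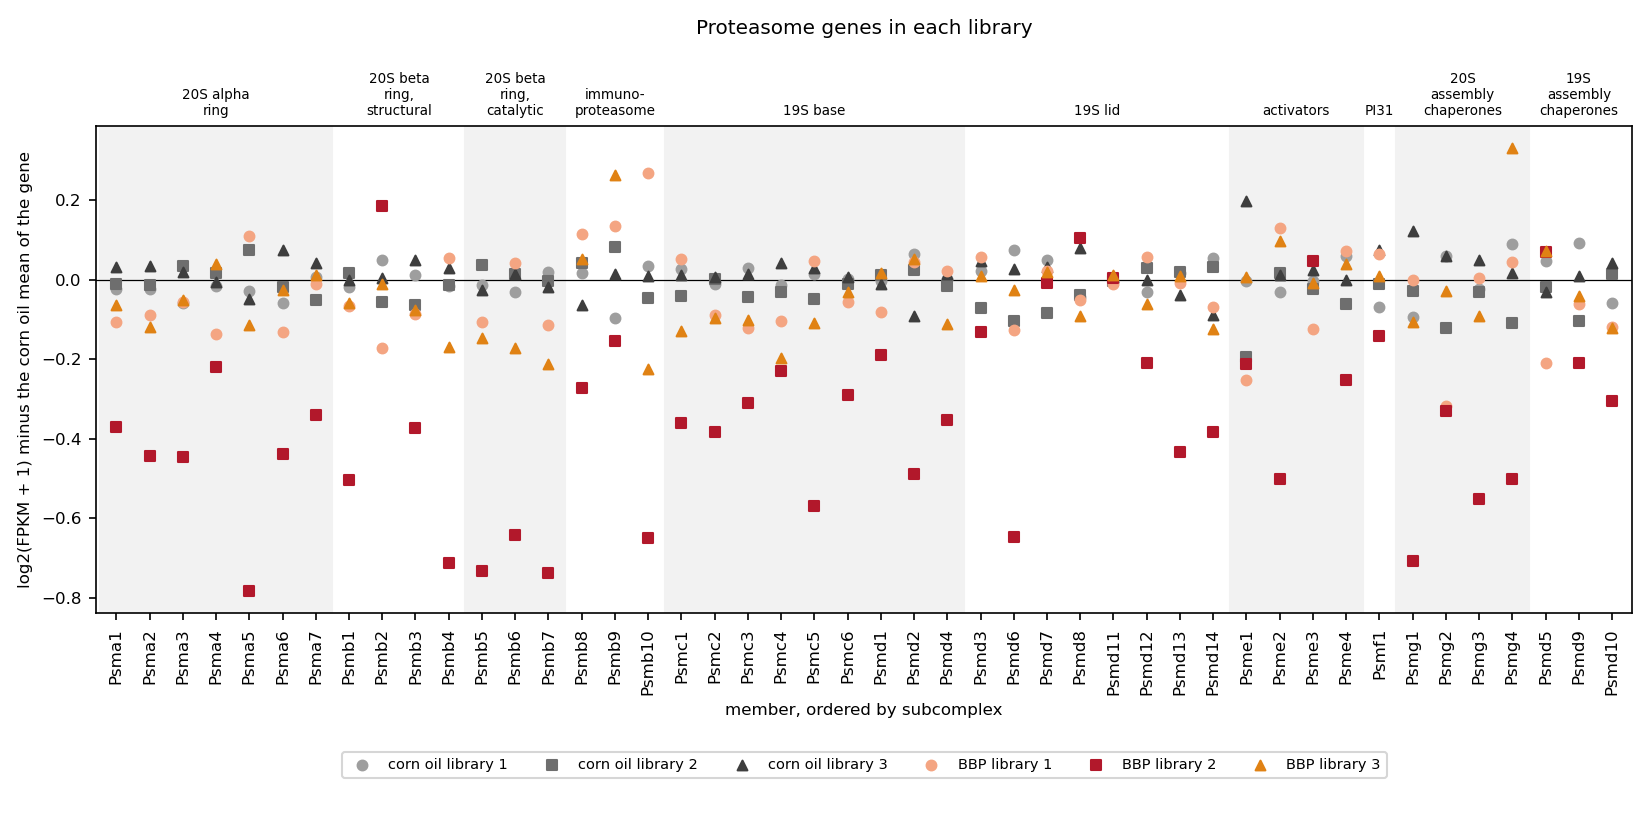
Each point is 1 library, as log2(FPKM + 1) minus the mean of the 3 corn oil libraries for that gene, for the 46 members of the named subcomplexes, shaded by subcomplex. BBP library 2 (red squares) lies below the other points for most members, while Psmb2, Psmd7, Psmd8, Psmd11, Psme1, Psme3 and Psmd5 do not follow it.

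BBP library 2 was the lowest of the 6 libraries for 41 of 49 members (83.7%), against 36.2% of all genes, and the highest for 3. It lay below all 3 corn oil libraries in 42 members (85.7%), against 43.4% of all genes. BBP library 1 did so in 23 members (46.9%), against 29.6% of all genes, and BBP library 3 in 25 (51.0%), against 22.9%. The median over the members of log2(FPKM + 1) relative to the corn oil mean came to -0.05, -0.35 and -0.05 in BBP libraries 1, 2 and 3, while that of all tested genes was 0.00, -0.05 and 0.02. The corn oil libraries stood at 0.00, -0.02 and 0.01 for the members. All 3 BBP libraries were thus on the low side, BBP library 2 by much more than the other two. The members took 0.268% of all counts in BBP library 2, 0.331% and 0.321% in BBP libraries 1 and 3, and 0.337% to 0.343% in the corn oil libraries. The part of the mitochondrial share, the oligodendrocyte markers and the CA2 and CA3 markers of BBP library 2 in this was not tested.

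The alpha ring, which gates entry to the core, comprised 7 genes, all with a negative estimate (log2 fold change -0.21 to -0.08, median -0.17, or -0.07 without BBP library 2). BBP library 2 was the lowest library for all 7. Psma2 measured 21.9, 22.1 and 22.8 FPKM in the corn oil libraries and 20.9, 16.1 and 20.4 FPKM in BBP libraries 1, 2 and 3. The groups did not overlap, and BBP library 2 was well below the rest. Its log2 fold change was -0.20 ± 0.09 (SE), with an edgeR adjusted p of 0.953, and was -0.12 without BBP library 2. Psma2 shares its interval with the gene AW209491 on the same strand, so its reads are uncertain. Psma5, named after its values were seen, measured 38.9, 41.8 and 38.3 FPKM in corn oil and 42.9, 22.6 and 36.6 FPKM in BBP. BBP library 1 was the highest of the 6 and BBP library 2 the lowest, so the estimate of -0.21 ± 0.18 (SE) was within the spread.

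Among the structural beta subunits, Psmb1, Psmb3 and Psmb4 had negative estimates (-0.23 to -0.16), and Psmb2 had a positive one. The median of the 4 was -0.17 (-0.09 without BBP library 2). Psmb2 measured 42.8, 39.7 and 41.5 FPKM in corn oil and 36.6, 47.2 and 41.0 FPKM in BBP, and is named because it ran against its neighbours in the ring. BBP library 2, the lowest library for the other three, was the highest for Psmb2.

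The catalytic subunits had the lowest median of the standard subcomplexes, -0.29 (-0.14 without BBP library 2), with levels of -0.11, -0.73 and -0.17 in BBP libraries 1, 2 and 3. Psmb5, the chymotrypsin-like subunit (ENSMUSG00000022193, chr14:54614119-54618022, minus strand in the deposited table), measured 98.0, 101 and 97.2 FPKM in the corn oil libraries and 91.8, 59.1 and 89.2 FPKM in the BBP libraries. The groups did not overlap, and BBP library 2 was at 0.598 times the corn oil mean. The log2 fold change was -0.29 ± 0.14 (SE, edgeR adjusted p = 0.953). Psmb7, the trypsin-like subunit (ENSMUSG00000026750, chr2:38588036-38644087, minus strand), measured 28.6, 28.1 and 27.8 FPKM in corn oil and 25.98, 16.5 and 24.2 in BBP. Here too every BBP library lay below every corn oil library. Psmb7 was the single member under the unadjusted threshold by edgeR's test across all genes (log2 fold change -0.33 ± 0.13 (SE), Benjamini-Hochberg adjusted p = 0.953). The gene overlaps Nek6 on the opposite strand. Without BBP library 2 its log2 fold change was -0.18, and Psmb5 came to -0.14. Psmb6, the caspase-like subunit, measured 33.9, 35.1 and 35.1 FPKM in corn oil and 35.7, 21.9 and 30.7 in BBP. Its groups overlapped, since BBP library 1 was the highest of the 6 libraries (log2 fold change -0.22 ± 0.14 (SE), and -0.08 without BBP library 2).

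The immunoproteasome subunits, which replace the catalytic ones after interferon signalling, had no shared direction. Psmb8, the inducible counterpart of Psmb5, measured 0.897, 0.929 and 0.793 FPKM in corn oil and 1.03, 0.551 and 0.941 FPKM in BBP. BBP library 1 was the highest and BBP library 2 the lowest (log2 fold change -0.04 ± 0.24, SE). Psmb9, the counterpart of Psmb6, measured 0.332, 0.507 and 0.439 FPKM in corn oil and 0.565, 0.280 and 0.711 FPKM in BBP. Its counts were only 73 to 194 per library, it overlaps Tap1 on the opposite strand, and its estimate of 0.28 ± 0.34 (SE) was within the spread between libraries. Psmb10, the counterpart of Psmb7, was the abundant one at 12.7, 11.9 and 12.4 FPKM in corn oil and 15.1, 7.51 and 10.4 FPKM in BBP. BBP library 1 again stood above all corn oil libraries, and the other BBP libraries below them (log2 fold change -0.15 ± 0.21, SE). The edgeR adjusted p of these 3 genes was 0.954 to 0.989.

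**Figure D2:**
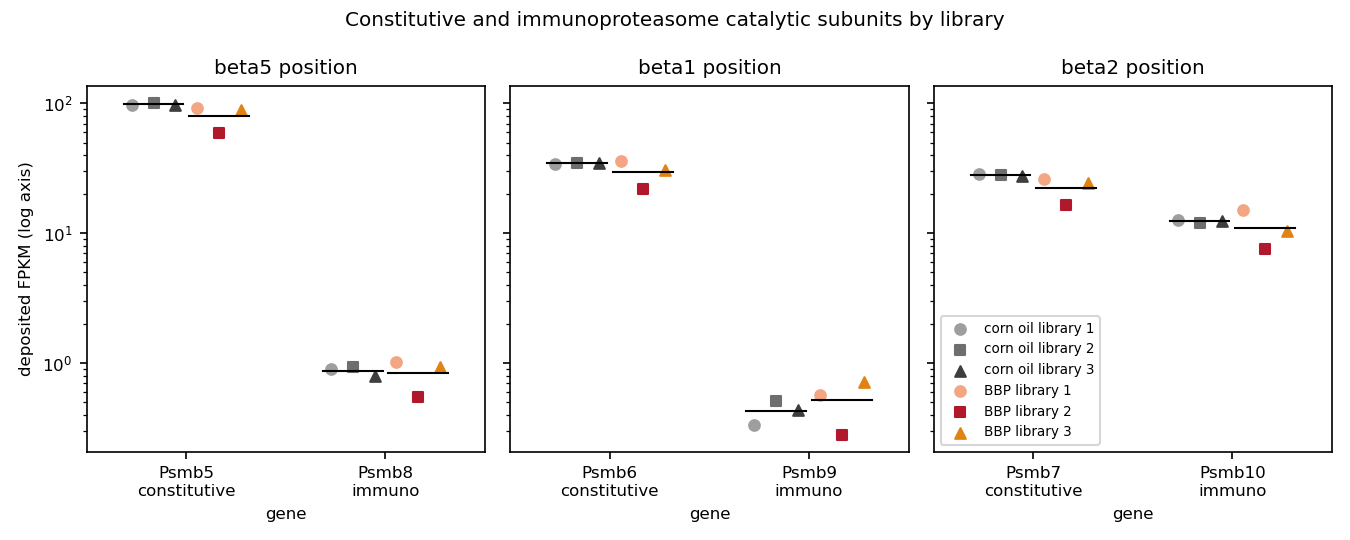
Deposited FPKM on a log axis for the constitutive catalytic subunits and the immunoproteasome subunits that take the same place in the beta ring, with each point 1 library and black bars the group means. Psmb8 and Psmb9 lie far below Psmb5 and Psmb6, Psmb10 lies closer to Psmb7, and BBP library 2 is the lowest point for all 6 genes.

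Within a library, the FPKM of Psmb8 was 0.916%, 0.915% and 0.816% of that of Psmb5 in the corn oil libraries 2, 1 and 3, and 1.12%, 0.933% and 1.06% in BBP libraries 1, 2 and 3. These ratios did not overlap between the groups, though the nearest values, 0.916% and 0.933%, were close. The FPKM of Psmb8 itself did overlap, and its counts were only 133 to 247 per library. How often ratios of other gene pairs would fail to overlap was not computed, so this is a description. Psmb9 was 0.979% to 1.45% of Psmb6 in corn oil and 1.28% to 2.32% in BBP, which overlapped. Psmb10 was 44.4%, 42.5% and 44.7% of Psmb7 in corn oil and 58.1%, 45.5% and 43.1% in BBP, with BBP library 1 alone clearly above the others. Per kilobase of the principal transcript in place of all annotated exons, the same ratio was 18.8% to 19.7% in corn oil and 19.04% to 25.7% in BBP. BBP library 1 also differed in the 12 blood leukocyte markers, whose summed FPKM was 14.8 there, 1.06 to 1.47 in the corn oil libraries and 1.40 to 2.49 in the other BBP libraries. Of that sum, 13.6 FPKM came from the T-cell receptor segment Trbc2. Ptprc, a pan-leukocyte gene, was at 0.132 FPKM in BBP library 1, within the 0.1001 to 0.185 FPKM of the others, and Cd3e, Cd3g, Ms4a1, Cd79b, Ccl5 and S100a8 were listed at 0 there. Microglial markers, the brain's resident macrophages, stood at 0.16 in BBP library 1 and at -0.09 to 0.03 in the other libraries. The part of these cells in the Psmb10 value was not tested.

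The tissue-specific core subunits were near the limit of detection. Psma8, an alpha subunit known from testis, had 13, 4 and 9 counts in corn oil and 10, 7 and 14 in BBP, and was not tested. Psmb11, the thymic beta subunit, had 18, 23 and 21 counts in corn oil and 11, 2 and 9 in BBP. Its groups did not overlap and its log2 fold change was -1.47 ± 0.65 (SE, edgeR adjusted p = 0.953), the widest estimate of the family, with a 95% interval of -2.96 to 0.03. A count of 4 was more frequent across genes than 3 or 5 in each library, so several counts may stand for 1 fragment and such low counts for fewer fragments still. With counts divided by 4, Psmb11 did not pass the filter.

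All 9 genes of the 19S base in the rule had negative estimates (-0.18 to -0.07, median -0.12, or -0.06 without BBP library 2). BBP library 2 was the lowest library for each. The level was -0.06, -0.35 and -0.10 in BBP libraries 1, 2 and 3. Among the 6 ATPases, Psmc4 was the one in which BBP library 3 was nearly as low as BBP library 2: it measured 37.1, 36.6 and 38.6 FPKM in corn oil and 34.8, 31.8 and 32.6 FPKM in BBP. All BBP values lay below the corn oil values, by a log2 fold change of -0.16 ± 0.08 (SE, edgeR adjusted p = 0.953). Psmc2 measured 16.7, 16.9 and 17.0 FPKM in corn oil and 15.8, 12.7 and 15.7 FPKM in BBP. The corn oil values of Psmc2 were very close to each other, and the BBP values were all lower (-0.18 ± 0.08, SE). Psmd4, the ubiquitin receptor of the base, measured 33.6, 33.2 and 33.9 FPKM in corn oil and 34.1, 26.1 and 31.1 FPKM in BBP. Its groups overlapped through BBP library 1. Psmd1 and Psmd2, the scaffolds of the base, had estimates of -0.07 ± 0.07 and -0.10 ± 0.13 (SE).

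The 19S lid differed from the base in these libraries by description. Of its 8 genes in the rule, 4 had a positive and 4 a negative estimate. Among the positive ones, Psmd3 was at 0.00 ± 0.08 (SE). The lid median was -0.02 (-0.07 without BBP library 1 and -0.015 without BBP library 2), and its level in BBP library 2 was -0.17. The difference between lid and base was not tested. Psmd14, the enzyme that removes ubiquitin from the substrate, measured 28.7, 28.2 and 25.9 FPKM in corn oil and 26.2, 20.9 and 25.2 FPKM in BBP. BBP library 2 was the lowest, and the groups overlapped (log2 fold change -0.17 ± 0.09, SE). Psmd11, a lid scaffold subunit (ENSMUSG00000017428, chr11:80428615-80473248, plus strand), measured 7.01, 7.03 and 7.08 FPKM in corn oil and 6.99, 7.07 and 7.11 FPKM in BBP. BBP library 2 was not low for Psmd11, whose log2 fold change was 0.03 with a 95% interval of -0.15 to 0.21. Psmd7, the partner of Psmd14, measured 37.5, 34.1 and 37.1 FPKM in corn oil and 36.8, 36.0 and 36.7 FPKM in BBP. The BBP values of Psmd7 lay inside the corn oil range (0.03 ± 0.08, SE). Psmd8, named after its values were seen, was at 28.7 FPKM in BBP library 2, above the 24.9 to 28.2 FPKM of the other libraries. Psmd6, also named after its values were seen, was at 16.4 FPKM there and at 23.98 to 27.8 FPKM elsewhere. The lid was thus mixed within 1 library.

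**Figure D3:**
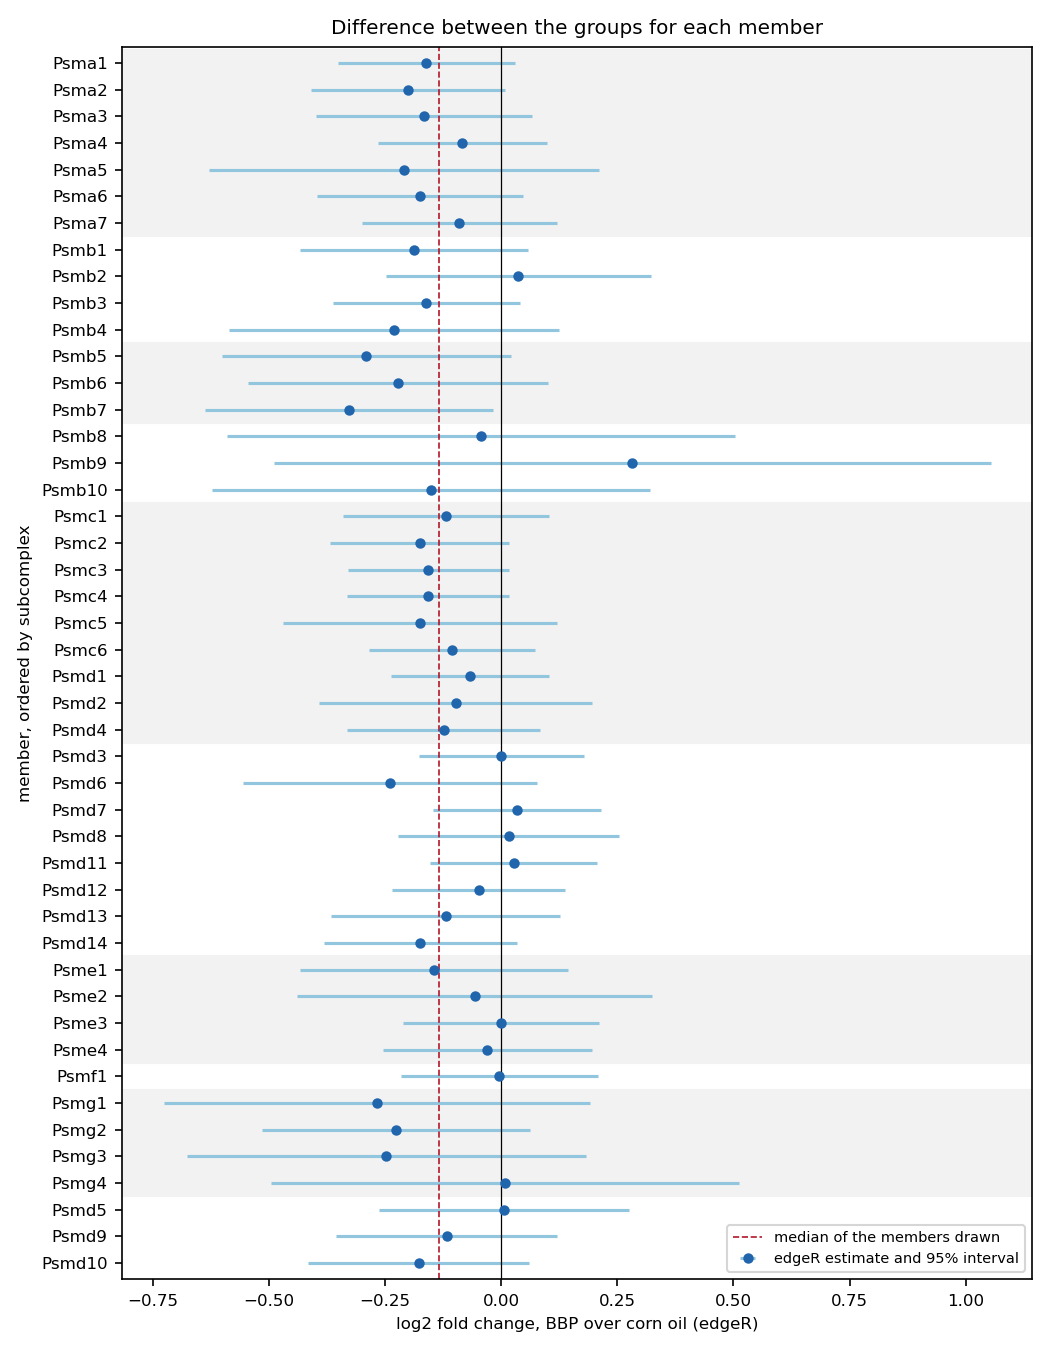
Log2 fold change of BBP over corn oil with its 95% confidence interval (edgeR) for the 46 members of the named subcomplexes, shaded by subcomplex, with the dashed line at their median. The intervals of all but Psmb7 include 0, and the points of the alpha ring, the catalytic subunits and the 19S base all lie left of 0.

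The activators open the core without ubiquitin. Psme1 and Psme2, the interferon-inducible PA28 alpha and beta subunits, measured 14.6, 12.7 and 17.0 FPKM and 7.94, 8.25 and 8.21 FPKM in corn oil. In BBP libraries 1, 2 and 3, Psme1 measured 12.2, 12.5 and 14.7 FPKM and Psme2 measured 9.002, 5.45 and 8.77 FPKM. Psme1 was as low in BBP library 1 as in BBP library 2, while Psme2 was above the corn oil range in BBP libraries 1 and 3. Psme3, the nuclear PA28 gamma, measured 36.4, 35.9 and 37.1 FPKM in corn oil and 33.4, 37.7 and 36.3 FPKM in BBP. Psme4, the PA200 cap, measured 5.94, 5.38 and 5.66 FPKM in corn oil and 6.01, 4.59 and 5.85 FPKM in BBP. Psme3 was at its highest and Psme4 at its lowest in BBP library 2. The 4 estimates ran from -0.15 ± 0.13 (SE) for Psme1 to 0.00 ± 0.09 (SE) for Psme3, and none was beyond the spread. Psmf1, which encodes PI31, a binding partner of the core first described as an inhibitor, measured 4.19, 4.40 and 4.74 FPKM in corn oil and 4.70, 3.94 and 4.48 FPKM in BBP. Its log2 fold change of 0.00 had a 95% interval of -0.22 to 0.21.

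Assembly of the core needs dedicated chaperones, of which Psmg1 and Psmg2 form a pair that builds the alpha ring. Psmg1 measured 6.39, 6.73 and 7.58 FPKM in corn oil and 6.88, 3.83 and 6.33 FPKM in BBP. Psmg2 measured 9.44, 8.20 and 9.44 FPKM in corn oil and 7.04, 6.96 and 8.82 FPKM in BBP. In Psmg1 the low value was BBP library 2 alone, whereas in Psmg2 BBP libraries 1 and 2 were alike. Psmg3, of the second pair, measured 3.03, 3.01 and 3.24 FPKM in corn oil and 3.11, 1.79 and 2.85 FPKM in BBP. Its partner Psmg4 measured 9.67, 8.31 and 9.15 FPKM in corn oil and 9.35, 6.09 and 11.6 FPKM in BBP. BBP library 2 was the lowest library for all 4 chaperones, and BBP library 3 the highest for Psmg4. Their median estimate was -0.24 (-0.07 without BBP library 2), with standard errors of 0.13 to 0.22, so no difference was beyond the spread. The 19S chaperones Psmd5, Psmd9 and Psmd10 had estimates of 0.01 ± 0.12, -0.12 ± 0.10 and -0.18 ± 0.10 (SE). Their median was -0.12 (-0.09 without BBP library 2 and -0.05 without corn oil library 1).

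The rule also took in 2 genes that are not standard subunits. Psmc3ip encodes a partner protein of Psmc3 known for its role in meiotic recombination, and measured 1.35, 0.951 and 1.22 FPKM in corn oil and 1.25, 1.26 and 1.12 FPKM in BBP. The BBP values of Psmc3ip lay inside the corn oil range. Psme2b is a close copy of Psme2, so reads may be divided between them. Psme2b also shares its interval with Gm12185 and 9930111J21Rik1 on the same strand. It was at 5.64 to 6.94 FPKM in corn oil and 3.31 to 5.73 FPKM in BBP. Its log2 fold change of -0.41 ± 0.21 (SE) is uncertain for both reasons.

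The counts of members below the unadjusted threshold depended on which BBP library was left out. Without BBP library 1, 13 of 50 members (26%) were lower at an edgeR p under 0.05, against 3.83% of all genes: Psma2, Psma5, Psmb4, Psmb5, Psmb6, Psmb7, Psmb10, Psmc1, Psmc2, Psmc5, Psmd4, Psmd14 and Psme2b. Without BBP library 2, Psmb7 and Psmc4 were lower (4.00%), against 1.36% of all genes. Without BBP library 3, Psma6, Psmd6 and Psmg2 were lower, against 3.0% of all genes. Without BBP libraries 1 and 2, a comparison of 1 BBP library that is assumed to vary like the others, 6 were lower (12%), against 3.13% of all genes. In each of these fits 0 members passed the adjusted threshold and 0 were higher at the unadjusted one. The part of the striatal and other regional markers of BBP library 1 in these counts was not tested. The members' median log2 fold change was -0.18 without BBP library 1 and -0.07 without BBP library 2, beside 0.01 and 0.00 for all genes. With BBP library 2 left out, 39 of 50 members (78.0%) still had a negative estimate, against 48.9% of all genes, so the negative sign was also seen without that library, at a smaller median.

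When genes were ranked by transcript length into 3 equal bins, the shortest bin held 31 members, and the level in BBP library 2 was -0.07 for all genes and -0.37 for the members. In the middle bin it was -0.04 for all genes and -0.29 for 15 members, and in the longest bin -0.03 for all genes and -0.07 for 3 members. That -0.07 was the value of Psmb11, near the limit of detection, which was at 0.0985 times its corn oil mean in BBP library 2. At so low a level the 1 added in log2(FPKM + 1) hides most of a change, so the bins cannot show a trend with length. Across 3 equal bins of GC content, all genes stood at -0.05 to -0.04 and the members at -0.36 to -0.34. A fit corrected for length gave a median log2 fold change of -0.11, and a fit corrected for GC content gave -0.15.

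Levels were next compared between subunits, in the corn oil libraries. The deposited FPKM divides each count by the length of all annotated exons of the gene: this length gave a single factor to within 1% for 98.2% of 10375 well-counted genes, against 2.57% for the longest transcript. Since some proteasome genes have long annotated exons outside the main transcript, FPKM spread the 31 standard subunits 14.0-fold, from 7.04 for Psmd11 to 98.9 for Psmb5. Counts scaled to library size (CPM) and divided by the length of the principal transcript in kilobases spread them 6.26-fold, from 17.6 for Psmd11 to 110 for Psmb5. With no division by length, the spread was 3.80-fold. Psmb7, for example, moved from 28.2 FPKM, 28.5% of the value of Psmb5, to 92.7 CPM per kilobase, 84.0% of it. The order of subunits thus turned on the length used, although a fold change between groups did not, because each gene's length cancels. By the principal transcript, the 8 lid genes ranged from 17.6 to 59.3, the 9 base genes from 33.0 to 110 and the 14 core genes from 28.0 to 110.

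**Figure D4:**
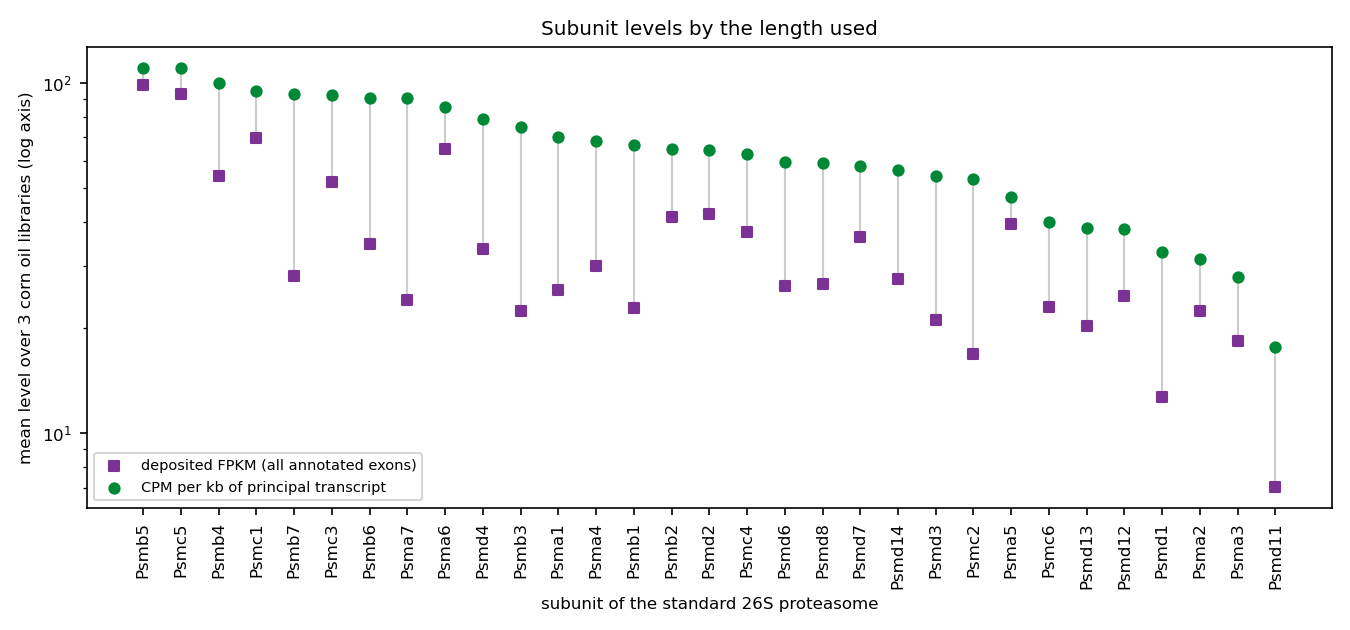
Mean level over the 3 corn oil libraries on a log axis for the 31 standard subunits, as deposited FPKM (squares) and as CPM per kilobase of the principal transcript (circles). The gap between the symbols is widest for Psma7, Psmb3 and Psmb7, and Psmd11 is the lowest by either measure.

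Genes that work with the proteasome were taken from lists outside the rule, and 0 passed the adjusted threshold. Of 18 proteasome partners, 10 had a negative and 8 a positive estimate (median -0.06, level -0.21 in BBP library 2). Adrm1 of the 19S base and Sem1 of the 19S lid are among them, since their symbols fall outside the rule. Both are named after their values were seen. Adrm1 was at 14.6 FPKM in BBP library 2, its highest library (log2 fold change 0.07 ± 0.10, SE). Sem1 was at 5.28 FPKM there, its lowest library (-0.28 ± 0.16, SE). Usp14, a deubiquitinase of the 19S particle, measured 18.8, 18.5 and 18.6 FPKM in corn oil and 16.5, 12.5 and 17.8 FPKM in BBP. All BBP values of Usp14 lay below those of corn oil (log2 fold change -0.24 ± 0.11 (SE), edgeR adjusted p = 0.953, and -0.14 without BBP library 2). Ubqln4, a shuttle of ubiquitinated proteins, measured 23.7, 25.3 and 24.2 FPKM in corn oil and 28.5, 27.7 and 24.8 FPKM in BBP, a positive estimate of 0.17 ± 0.10 (SE). Of the 4 genes that control proteasome transcription, Nfe2l1 had an estimate of 0.01 ± 0.09 (SE). It measured 44.4, 45.1 and 44.2 FPKM in corn oil and 48.2, 38.1 and 46.3 FPKM in BBP. BBP library 2 was its lowest library, and BBP libraries 1 and 3 were above the corn oil range. A relation between Nfe2l1 and the levels of the members was not tested. Nfe2l2 was at 2.76, 3.42 and 2.99 FPKM in corn oil and 2.87, 4.59 and 3.56 FPKM in BBP, with its highest value in BBP library 2 (0.30 ± 0.20, SE). Ngly1, which processes Nfe2l1, was at 2.93, 3.14 and 3.06 FPKM in corn oil and 2.90, 2.31 and 3.03 FPKM in BBP.

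Of the 8 genes of ubiquitin and its activation, 4 had negative and 4 positive estimates. Rps27a, which encodes ubiquitin fused to a ribosomal protein, had a log2 fold change of -0.37 ± 0.19 (SE), or -0.17 without BBP library 2. It measured 70.0, 72.9 and 70.9 FPKM in corn oil and 71.1, 35.7 and 57.1 FPKM in BBP. Rps27a was lowest in BBP library 2, while the polyubiquitin gene Ubb was at its highest there, at 767 FPKM against 618 to 696 FPKM in the other libraries. Of 12 genes of peptide presentation and its inducers, 6 had negative and 6 positive estimates. B2m, the light chain of class I molecules, measured 94.9, 87.2 and 103 FPKM in corn oil and 116, 141 and 100 FPKM in BBP (log2 fold change 0.36 ± 0.15 (SE), edgeR adjusted p = 0.953, and 0.17 without BBP library 2). Stat2, an interferon signal transducer, measured 4.12, 4.46 and 4.59 FPKM in corn oil and 4.87, 4.68 and 4.78 FPKM in BBP. BBP library 2 was the highest for B2m and not apart for Stat2. All BBP values of Stat2 lay above those of corn oil (log2 fold change 0.14 ± 0.09 (SE), edgeR adjusted p = 0.953). Of the 12 genes, 1 lay wholly above and 1 wholly below, against 4.4% and 5.25% of all genes.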

How the data were processed

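Per the labels' protocols, polyA RNA gave 6 paired-end libraries, with dUTP marking the strand and molecular identifiers in the adapters. Tools listed without roles in the submitters' processing notes were HISAT2 2.2.1, StringTie 2.1.6, cutadapt 1.9, edgeR, DESeq2 and UMI-tools, on mm10. The deposited estimated counts are whole numbers. FPKM was taken as deposited. Whether counting used strand is not given in the sources used here. Overlapping genes are therefore uncertain. Not every overlap is named above: Psma5, Psmb5, Psmb10, Psme1 and Psme4 are among the other members that overlap another gene. The values were tested on all genes with edgeR 4.0.16 (TMM, filterByExpr, quasi-likelihood F test, treatment only, Benjamini-Hochberg) in R 4.3.3. Standard errors were derived from the log2 fold change and the F statistic. Library levels are medians of log2(FPKM + 1) minus the corn oil mean of each gene. Lengths came from GENCODE M21. Figures used matplotlib 3.10.9.

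Every-library values are given for the catalytic, immunoproteasome and tissue-specific subunits, Psmd4, Psmd11, Psmd14, the activators, Psmf1 and Psmg1 to Psmg4. They are also given for the 4 smallest p in each direction, the highest and lowest standard subunit, up to 6 members whose groups did not overlap, and the 2 smallest p of each of 4 outside lists. A gene that this rule selects is not reported here. The members and lists were chosen with earlier results of these data known. Alternatives were limma 3.58.1 on log2(FPKM + 1) or log2(FPKM + 0.1), DESeq2 1.42.0, other size factors, no filter, a replicate block, a length correction and fits without each library. Added after seeing the data were a GC correction, counts divided by 4 (since a count of 4 was more frequent than 3 or 5) and a fit without BBP libraries 1 and 2. The scripts were tested on simulated data. There edgeR recovered 11 of 50 genes changed 1.5-fold, 34 of 50 changed 2-fold and 50 of 50 changed 4-fold, with 15 false calls. At a biological coefficient of variation of 0.225, changes of 1.5-fold and 2-fold can thus be missed. No sample was left out.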

Additional observations from a re-analysis of the deposited data

How the results depend on the processing

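In all 17 alternatives 0 members passed the adjusted threshold and 0 were higher at the unadjusted one. The count of members lower at an unadjusted p under 0.05, 1 as reported, was 2 without a count filter (1.34% of all genes), 0 by limma with either pseudocount among genes averaging at least 1 FPKM (1.88% and 1.85%), 3 by limma on log2(FPKM + 1) without a filter (1.72%), 6 without BBP libraries 1 and 2 (3.13%), and 0 to 13 when 1 library was left out (0.719% to 3.83%). The 13 came without BBP library 1, and the 0 without any 1 of the corn oil libraries. The members' median log2 fold change stayed negative, between -0.18 and -0.07. Those with groups that do not overlap, all lower in BBP, numbered 13 by CPM (against 5.32% of all genes) in place of 12 by FPKM (against 5.25%). The immunoproteasome median, -0.04 as reported, was 0.15 without BBP library 2 and -0.20 without BBP library 1.

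No pairing by replicate number was seen: the correlations of same-numbered deviations were -0.08, 0.08 and -0.10 over 20428 genes. With 3 libraries per group, such values cannot exclude a pairing. A fit with the replicate block gave a members' median of -0.14, 0 members past the adjusted threshold and 1 lower at the unadjusted one.

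Signs changed in genes with estimates smaller than their standard errors, and in Ubqln4 (-0.0095 without BBP libraries 1 and 2). The cause was not tested. Leaving out 1 library gave log2 fold changes on both sides of 0 for Psmb8 (-0.20 to 0.15), Psmb10 (-0.43 to 0.033), Psmc3ip (-0.062 to 0.18), Psmd11 (-0.014 to 0.048), Psmd7 (-0.0061 to 0.061), Psme2 (-0.17 to 0.11), Psme3 (-0.082 to 0.061), Psme4 (-0.087 to 0.049), Psmf1 (-0.044 to 0.043) and Psmg4 (-0.19 to 0.20). Without BBP libraries 1 and 2, Psmb8 was at 0.075, Psmc3ip at -0.10, Psmd11 at -0.018, Psmd7 at -0.014, Psme2 at 0.079 and Psme4 at 0.014. Psme3 was at 0.0019 with the length correction and 0.0014 with counts divided by 4. Psmg4 was at -0.041 by limma on log2(FPKM + 1) with or without the filter, -0.049 with the smaller pseudocount and -0.024 with the replicate block.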
